A study of Mus musculus with 20 samples.

Results

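The cytochrome P450 genes of mouse skin were followed across a high fat diet and a topical imiquimod treatment. Members were all genes whose symbol consists of Cyp, a family number, subfamily letters and a gene number, taken from array features that carry exactly 1 gene symbol, with the feature of highest mean over all arrays kept for each gene. This gave 90 genes among the 22180 genes tested. Of these 90, 33 had a mean over the 20 arrays above 3.04 on the log2 scale, the highest of the 20 array medians, and 57 lay at or below it. The 33 brighter genes carry most of the account, because values near or below the array median say little about the size of a change.

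The arrays measured RNA of abdominal skin from C57/B6 mice aged 9 weeks. The 4 groups held 5 mice each: high fat diet with imiquimod cream (HFD-IMQ), control chow with imiquimod cream (CD-IMQ), high fat diet with vehicle cream (HFD-vehicle) and control chow with vehicle cream (CD-vehicle). The abdomen of every mouse was shaved, and cream was put on it daily for 5 days, as 62.5 mg of a 5% imiquimod cream in the IMQ groups or as vehicle. All mice were killed 24 h after the last cream, so the vehicle skin was also shaved and creamed skin. Imiquimod is a Toll-like receptor 7 agonist whose cream gives a psoriasis-like inflammation of mouse skin.

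Cytochrome P450 enzymes are heme proteins that use oxygen and electrons from a reductase to oxidise lipids, hormones and foreign chemicals. Families 1, 2 and 3 are known mainly for foreign chemicals and for the oxidation of arachidonic acid, and family 4 for hydroxylating the end of fatty acid chains. Other members make or break down single signals such as retinoic acid, vitamin D, steroid hormones, oxysterols and bile acids. In skin they are known for building the lipid barrier, for clearing retinoic acid and for metabolising chemicals that reach the surface.

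Of the members, 36.67% were above the limit of 3.04, against 59.01% of all genes tested. These shares describe the brightness of the features, which depends on their probes, and not the amount of transcript. By role, 2 of 3 genes of family 1 were above it, 14 of 47 of family 2, 0 of 7 of subfamily 3a and 6 of 15 of family 4. The specialised enzymes were above it for 5 of 6 genes of sterol and bile acid metabolism, 2 of 3 of vitamin D metabolism, 2 of 5 of steroid hormone synthesis and 1 of 3 retinoic acid hydroxylases. Cyp20a1, an orphan enzyme, was the remaining bright member. A group mean above the limit was reached in all 4 groups by 29 members and in at least 1 group by 36.

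The 8 brightest features belonged to Cyp2e1 (mean of 9.26 over 20 arrays), Cyp4f39 (6.72), Cyp2f2 (6.71), Cyp2b19 (6.19), Cyp27a1 (5.87), Cyp2c55 (5.74), Cyp2b10 (5.60) and Cyp20a1 (5.51). Cyp2e1 oxidises ethanol and other small molecules, Cyp4f39 is the mouse counterpart of the human enzyme that hydroxylates very long fatty acids for barrier ceramides, and Cyp2b19 is a mouse keratinocyte enzyme that turns arachidonic acid into epoxides. These log2 values depend on each feature's probes and do not rank the amounts of different transcripts. Just above the limit lay Cyp24a1 (3.05), Cyp8b1 (3.10) and Cyp2s1 (3.23), and just below it Cyp3a57 (2.95), Cyp2w1 (2.92) and Cyp4x1 (2.89).

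**Figure D1:**
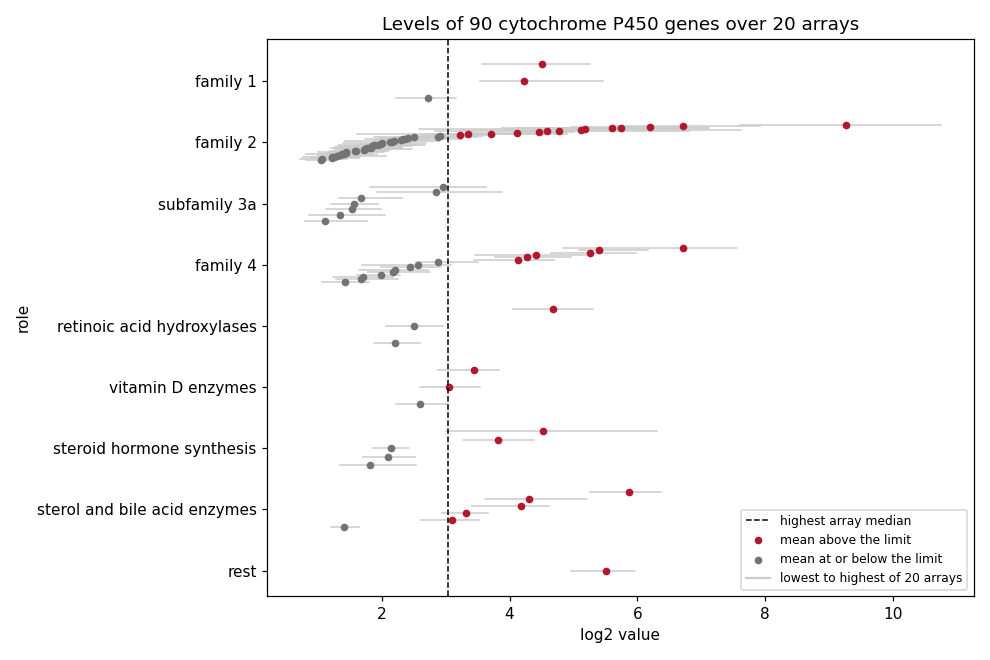
Mean log2 value over 20 arrays for each of the 90 cytochrome P450 genes (points) with the lowest and highest of the 20 arrays (grey lines), arranged by role, and the highest array median as a dashed line. The 33 red points lie above 3.04 and the 57 grey points at or below it, and subfamily 3a has no point above the line.

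The bright members also differed in the range of their values. This range covers all 4 groups, so it includes differences between groups as well as between mice. Over the 20 arrays Cyp46a1, the cholesterol hydroxylase known from brain, spanned 0.73 log2 units, the narrowest range among the 33. Cyp2g1, known from olfactory mucosa, spanned 4.39 units, Cyp2j12 spanned 4.05 and Cyp2b23 spanned 3.98. Cyp2g1 and Cyp2b23 lie in a gene cluster on chromosome 7 and Cyp2j12 in the Cyp2j cluster on chromosome 4 (RefSeq, GRCm38.p6). The same clusters held wide ranges for Cyp2j8 (3.287) and Cyp2b10 (3.003) and narrow ones for Cyp2j9 (0.952), Cyp2j6 (1.055) and Cyp2s1 (1.131). Outside both clusters Cyp17a1 (3.296), Cyp2c55 (3.221) and Cyp2e1 (3.152) also ranged widely. The chromosome 7 run held 13 members, 6 of them bright (Cyp2s1, Cyp2b10, Cyp2b23, Cyp2b19, Cyp2g1 and Cyp2f2), and the Cyp2j run held 7 members, 4 of them bright. The Cyp2c run on chromosome 19 held 13 members with only Cyp2c55 bright. Paralogs of the Cyp2b, Cyp2c, Cyp2d, Cyp2j, Cyp3a, Cyp4a and Cyp4f subfamilies are alike in sequence, and signal of a gene and cross-hybridisation of a paralog cannot be told apart in these values.

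Several arrays stood apart for these genes, CD-vehicle 3 by the widest margin. CD-vehicle 3 held 60.2% of the squared deviations from the group mean over the 33 bright members within CD-vehicle, against 28.4% over all genes. It was the lowest of its group for 16 of the 33, among them Cyp2b23, Cyp2j12, Cyp2g1, Cyp17a1 and Cyp4f39, and the highest for 7, among them Cyp2e1 and Cyp2c55. Over all genes above the limit it was the lowest for 27.4% and the highest for 22.7%. Its marker lists differed as well: the mean of 7 inner root sheath genes was 2.94 on that array, against 4.94 to 6.39 on the other arrays of its group, and the mean of 8 sebaceous gland genes was 5.58, against 6.73 to 7.30. HFD-IMQ 4 was the highest of its group for 17 of the 33 and held 38.6% of its group's squared deviations over them, against 30% over all genes. HFD-vehicle 5 held 38.2%, against 18% over all genes, and was the lowest of its group for 11 members. HFD-vehicle 3 was the lowest for 15 members but held 20.8% of the deviations, against 42.8% over all genes. Of all genes above the limit, HFD-IMQ 4 was the highest for 25.4%, HFD-vehicle 5 the lowest for 25.4% and HFD-vehicle 3 the lowest for 26.7%. For several results below the value without CD-vehicle 3 is also given.

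**Figure D2:**
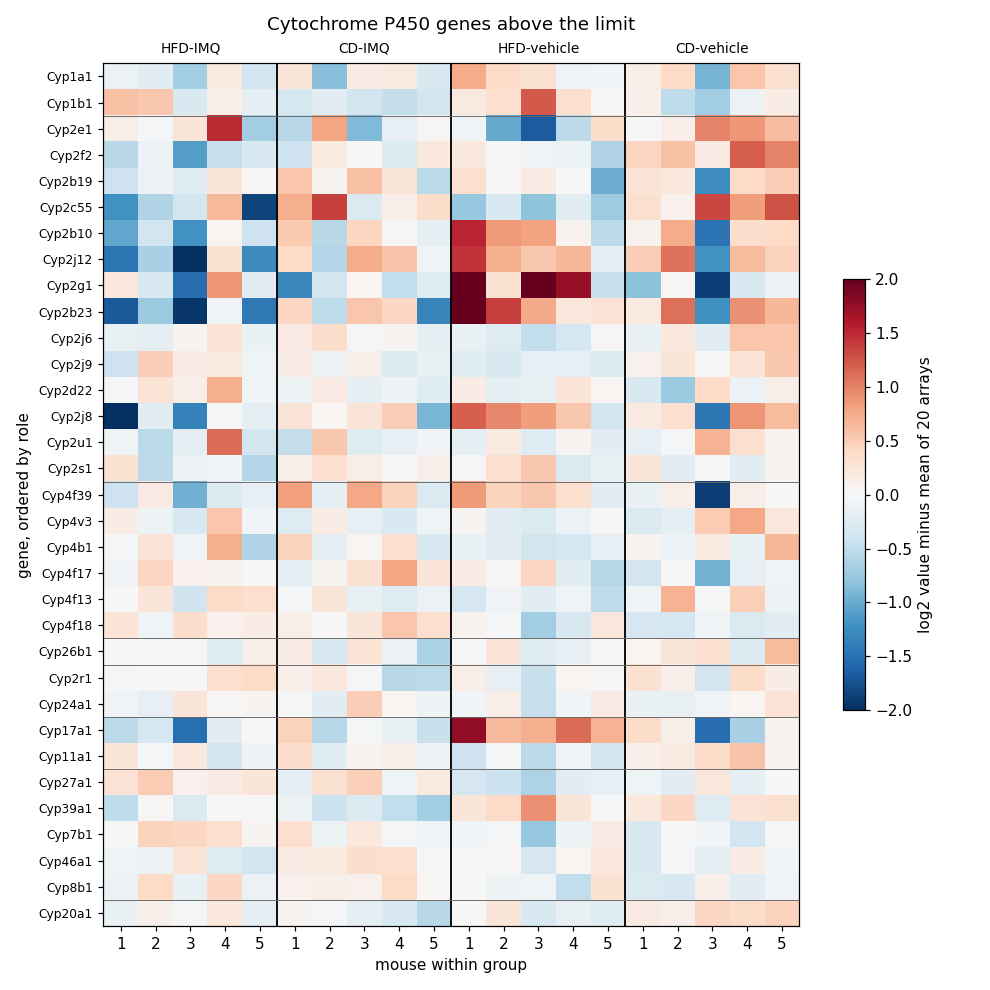
Log2 value minus the mean of the 20 arrays for the 33 bright cytochrome P450 genes (rows, by role) in each mouse (columns, by group), with the colour scale ending at 2 units in each direction. Cyp2b23, Cyp2j12 and Cyp2j8 are blue in most HFD-IMQ mice, Cyp17a1 is red in all 5 HFD-vehicle mice, and CD-vehicle 3 is dark blue for many genes of family 2.

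IMQ-treated skin was compared with vehicle skin of chow-fed mice first. Cyp3a13 and Cyp4f18 rose, and Cyp20a1, Cyp2f2 and Cyp39a1 fell in CD-IMQ skin. The largest change was that of Cyp3a13, which was 2.34-fold higher in CD-IMQ skin, and the other 4 changes were under 1.7-fold. Thus 5 of 90 members (5.56%) passed at an adjusted p below 0.05, against 10.9% of all genes tested, and 4 of the 33 bright members (12.1%), against 17% of all genes above the limit. By direction, 2 members rose and 3 fell, where 3.91% of all genes rose and 7.02% fell. Of the bright members 1 rose and 3 fell, where 5.53% and 11.4% of all genes above the limit did so. The median log2 change was 0.05 over the 90 members and 0.02 over all genes.

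Cyp3a13 belongs to the subfamily that oxidises drugs and steroids. It measured 3.88, 3.34, 3.58, 2.74 and 3.33 in CD-IMQ skin, against 2.14, 2.20, 1.92, 2.26 and 2.23 in CD-vehicle skin. The groups did not overlap, and the log2 change was 1.23 ± 0.17 (standard error, adjusted p = 5.36e-05 with limma). Its values lay below the limit in every vehicle mouse, so the size of the rise is less certain than its direction. Non-overlapping groups were found for 3 members (Cyp3a13, Cyp4f18 and Cyp20a1) and for 8.89% of all genes.

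Cyp4f18, which oxidises leukotriene B4 in mouse neutrophils, measured 4.25, 4.13, 4.37, 4.70 and 4.47 in CD-IMQ skin, against 3.80, 3.78, 4.05, 3.85 and 3.91 in CD-vehicle skin. Every CD-IMQ mouse was above every CD-vehicle mouse, by a change of 0.51 ± 0.15 (adjusted p = 0.0268). The change stayed between 0.43 and 0.57 in all 20 fits that left out 1 array, but the call was lost in 4 of them. Leaving out CD-vehicle 1 gave an adjusted p of 0.0586 and leaving out CD-vehicle 2 gave 0.0539, while the fits lacking CD-IMQ 4 and CD-IMQ 5 gave 0.0871 and 0.0645. Of 6 neutrophil markers, 3 of them above the limit, 2 rose in this comparison. Their list mean was 3.05 to 3.55 in CD-IMQ skin and 2.71 to 2.94 in CD-vehicle skin. Of 7 macrophage markers 4 rose. In HFD-IMQ skin 3 of the neutrophil and 6 of the macrophage markers rose, and the Cyp4f18 change of 0.30 did not pass (adjusted p = 0.302). The part of these markers in the rise of Cyp4f18 was not tested.

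Cyp20a1 measured 5.56, 5.46, 5.32, 5.21 and 4.95 in CD-IMQ skin, against 5.67, 5.60, 5.92, 5.88 and 5.97 in CD-vehicle skin. The groups lay apart, with a change of -0.51 ± 0.13 (adjusted p = 0.0106) that kept its call without any single array. Cyp2f2, the enzyme of mouse lung that activates naphthalene, measured 6.30, 6.91, 6.70, 6.45 and 6.93 in CD-IMQ skin, against 7.14, 7.30, 6.87, 7.92 and 7.70 in CD-vehicle skin. Only CD-vehicle 3 fell among the CD-IMQ values, and the change was -0.73 ± 0.20 (adjusted p = 0.0195). The adjusted p was 0.0614 when CD-vehicle 4 was left out and 0.0573 when CD-vehicle 5 was, and it was 0.0518 lacking CD-IMQ 1 and 0.0565 lacking CD-IMQ 4, each ending the call. A second Cyp2f2 feature, with a lower mean, moved the same way by -0.26.

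Cyp39a1 hydroxylates an oxysterol on the way to bile acids. It measured 4.20, 3.87, 4.02, 3.80 and 3.62 in CD-IMQ skin, against 4.52, 4.72, 4.04, 4.59 and 4.61 in CD-vehicle skin. The groups overlapped through CD-IMQ 1 and CD-vehicle 3, and the change was -0.59 ± 0.16 (adjusted p = 0.0199). Without CD-IMQ 4 the adjusted p was 0.0506 and without CD-IMQ 5 it was 0.0645. Bulk skin was measured throughout, so fewer cells of a type and less RNA per cell cannot be told apart for any of these genes. In the same comparison 5 of 6 suprabasal keratinocyte markers rose, with a list mean of 9.25 to 9.82 in CD-IMQ skin and 7.57 to 8.72 in CD-vehicle skin. Of the 7 inner root sheath genes 5 fell and of 6 fibroblast genes 4 fell, and their part in the 3 falls was not tested.

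In mice on the high fat diet the IMQ comparison gave larger falls. Cyp2b23, Cyp2j12, Cyp17a1, Cyp2j8 and Cyp3a57 fell in HFD-IMQ skin, and Cyp3a13 and Cyp27a1 rose. Cyp2b23 was 4.34-fold lower, Cyp2j12 3.41-fold, Cyp17a1 2.86-fold, Cyp2j8 2.65-fold (adjusted p = 0.0473) and Cyp3a57 2.06-fold lower. The HFD-IMQ means of Cyp2j8 (2.93) and Cyp3a57 (2.24) lay below the limit of 3.04, so these last 2 sizes are less certain than their direction. Thus 7 of 90 members (7.78%) passed, against 5.89% of all genes, and 5 of the 33 bright members (15.2%), against 9.05% of all genes above the limit. By direction, 2 members rose and 5 fell, where 3.65% of all genes rose and 2.24% fell. Of the bright members 1 rose and 4 fell, where 5.7% and 3.35% of all genes above the limit did so. The groups did not overlap for 5 members, Cyp3a13, Cyp3a57, Cyp17a1, Cyp2b23 and Cyp27a1, and for 6.06% of all genes.

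Cyp2b23, of the Cyp2b subfamily, measured 3.09, 4.02, 2.83, 4.69 and 3.34 in HFD-IMQ skin, against 6.80, 6.16, 5.54, 4.98 and 5.07 in HFD-vehicle skin. No HFD-IMQ value reached the lowest HFD-vehicle value, and the change was -2.12 ± 0.45 (adjusted p = 0.00426). In chow-fed mice Cyp2b23 measured 5.19, 4.27, 5.33, 5.18 and 3.43 in CD-IMQ skin, against 4.96, 5.87, 3.54, 5.69 and 5.44 in CD-vehicle skin. Those groups overlapped widely, with a change of -0.42 (95% interval -1.35 to 0.51, adjusted p = 0.631). CD-vehicle 3 was the lowest of its group at 3.54, and without it the change was -0.81 (-1.67 to 0.05, adjusted p = 0.259). Cyp2b10, the phenobarbital-inducible paralog, measured 4.56, 5.23, 4.39, 5.65 and 5.18 in HFD-IMQ skin, against 7.12, 6.46, 6.40, 5.66 and 5.08 in HFD-vehicle skin. Its change of -1.14 did not pass (95% interval -1.91 to -0.37, adjusted p = 0.0770), although it did without HFD-vehicle 5 (-1.41, adjusted p = 0.0220), CD-vehicle 3 (-1.14, 0.0227) or HFD-IMQ 4 (-1.30, 0.0476).

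The upstream sequences of Cyp2b23 and Cyp2b10 are shown because both are paralogs of the chromosome 7 run, of which Cyp2b23 passed and Cyp2b10 did not. They are the 250 bases before each gene's annotated start in RefSeq (GRCm38.p6), written 5′ to 3′ on the gene's strand, for Cyp2b23 the region chr7:26686431-26686680 on the minus strand and for Cyp2b10 the region chr7:25897408-25897657 on the plus strand. Capitals mark the 5 runs of at least 12 bases that both share, the longest of 34 bases.
Cyp2b23: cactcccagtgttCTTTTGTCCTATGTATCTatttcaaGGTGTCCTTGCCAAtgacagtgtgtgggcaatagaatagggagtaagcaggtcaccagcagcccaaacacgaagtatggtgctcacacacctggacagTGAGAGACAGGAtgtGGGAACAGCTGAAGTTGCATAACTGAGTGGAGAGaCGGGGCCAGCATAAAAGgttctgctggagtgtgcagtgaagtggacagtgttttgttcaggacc
Cyp2b10: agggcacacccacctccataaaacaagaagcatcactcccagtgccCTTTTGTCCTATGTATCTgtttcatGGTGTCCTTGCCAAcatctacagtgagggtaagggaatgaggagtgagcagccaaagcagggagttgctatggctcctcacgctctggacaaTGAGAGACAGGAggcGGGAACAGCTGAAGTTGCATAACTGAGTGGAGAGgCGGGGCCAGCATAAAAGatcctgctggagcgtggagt
Aligned over 291 columns, 183 positions (62.9%) were identical, against 58.6% for Cyp2b23 with Cyp2b19 and 54.8% for Cyp2j12 with Cyp2j8. The likeness of the letters is a description and says nothing of which factors bind there.

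Cyp2j12, of the Cyp2j subfamily whose known members turn arachidonic acid into epoxides, measured 3.72, 4.53, 2.58, 5.49 and 3.90 in HFD-IMQ skin, against 6.63, 5.89, 5.73, 5.85 and 4.98 in HFD-vehicle skin. Only HFD-IMQ 4 lay within the HFD-vehicle range, and the change was -1.77 ± 0.43 (adjusted p = 0.0134). In CD-IMQ skin it measured 5.59, 4.59, 5.92, 5.75 and 5.10, against 5.67, 6.26, 3.98, 5.81 and 5.64 in CD-vehicle skin, a change of -0.08 (95% interval -0.98 to 0.82). Without CD-vehicle 3, at 3.98 the lowest of its group, the change was -0.46 (-1.29 to 0.38).

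Its neighbour Cyp2j8 measured 1.62, 3.48, 2.36, 3.71 and 3.51 in HFD-IMQ skin, against 4.90, 4.67, 4.54, 4.24 and 3.34 in HFD-vehicle skin. Here 3 HFD-IMQ mice lay above the lowest HFD-vehicle mouse, and the change was -1.40 ± 0.42. The call of Cyp2j8 was lost in 13 of 20 fits that left out 1 array. These left out CD-vehicle 1, 2 or 5, CD-IMQ 1, 2, 3 or 4, HFD-vehicle 1, 2, 3 or 4, or HFD-IMQ 1 or 3, with adjusted p from 0.0525 to 0.160. The other bright Cyp2j genes, Cyp2j6 and Cyp2j9, had changes of 0.21 (95% interval -0.10 to 0.53) and 0.30 (0.01 to 0.59) that did not pass.

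Cyp17a1 catalyses the hydroxylase and lyase steps that lead from progestogens to androgens. It measured 4.01, 4.18, 3.02, 4.29 and 4.52 in HFD-IMQ skin, against 6.30, 5.17, 5.25, 5.64 and 5.22 in HFD-vehicle skin. All HFD-IMQ mice were below all HFD-vehicle mice, and the change was -1.51 ± 0.32 (adjusted p = 0.00381). In CD-IMQ skin the values were 4.98, 3.96, 4.50, 4.38 and 4.07, against 4.89, 4.65, 3.01, 3.87 and 4.60 in CD-vehicle skin, a change of 0.18 (95% interval -0.48 to 0.83). Without CD-vehicle 3, the lowest of its group, that change turned to -0.12 (-0.71 to 0.46). Of the adrenal and gonadal markers, 2 of 4 were above the limit and 0 passed, with Nr5a1, which drives steroid-forming genes, at group means of 3.07 to 3.17 and Star, the cholesterol carrier of steroid cells, at 2.77 to 2.94.

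Cyp27a1, which hydroxylates the side chain of cholesterol, measured 6.16, 6.38, 5.96, 6.03 and 6.12 in HFD-IMQ skin, against 5.54, 5.44, 5.25, 5.66 and 5.71 in HFD-vehicle skin. The groups lay apart, with a rise of 0.61 ± 0.13 (adjusted p = 0.00491). In chow-fed mice its change was 0.19 (95% interval -0.08 to 0.46, adjusted p = 0.413). Of 7 macrophage markers 6 rose in HFD-IMQ skin, with a list mean of 8.47 to 9.01 there and 7.41 to 8.13 in HFD-vehicle skin. In CD-IMQ skin 4 of the 7 rose. The part of these markers in the rise of Cyp27a1 was not tested.

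Both called genes of subfamily 3a were below the limit as a mean of 20 arrays. Cyp3a13 measured 3.22, 3.54, 3.51, 3.20 and 3.79 in HFD-IMQ skin, against 2.51, 2.76, 1.96, 2.52 and 2.20 in HFD-vehicle skin. The groups lay apart as in chow-fed mice, with a rise of 1.06 ± 0.17 (adjusted p = 0.000359). Cyp3a57 went the other way and measured 1.81, 2.48, 2.02, 2.58 and 2.31 in HFD-IMQ skin, against 3.46, 3.34, 2.88, 3.64 and 3.10 in HFD-vehicle skin. Every HFD-IMQ mouse was below the array medians and below every HFD-vehicle mouse, with a change of -1.04 ± 0.19 (adjusted p = 0.00138). The remaining 5 genes of the subfamily did not pass. The other genes called in chow-fed mice did not pass here, with changes of 0.30 for Cyp4f18 (adjusted p = 0.302), 0.08 for Cyp20a1 (0.832), -0.40 for Cyp2f2 (0.328) and -0.51 for Cyp39a1 (0.0724). Cyp39a1 passed here without CD-vehicle 3 (-0.51, adjusted p = 0.0470) or HFD-vehicle 5 (-0.60, 0.0347). The calls of Cyp3a13, Cyp3a57, Cyp17a1, Cyp2b23, Cyp27a1 and Cyp2j12 held without any single array.

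Cyp3a13 was the only member called in both IMQ comparisons, so its upstream sequence is shown, the region chr5:137921620-137921869 on the minus strand of GRCm38.p6 (RefSeq), written 5′ to 3′ on the gene's strand and ending at the base before the annotated start. Capitals mark its match to the AP-1 site TGAGTCA, here read on the opposite strand and starting 91 bases before the start.
Cyp3a13: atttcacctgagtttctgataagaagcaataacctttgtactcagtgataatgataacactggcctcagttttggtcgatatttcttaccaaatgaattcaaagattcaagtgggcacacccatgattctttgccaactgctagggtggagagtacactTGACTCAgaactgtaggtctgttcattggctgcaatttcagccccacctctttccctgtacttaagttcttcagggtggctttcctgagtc
Searched on both strands of 250 upstream bases, TGAGTCA was present in 4.5% of 32851 promoters and in 4 of the 78 promoters of the 70 members that matched the table. The dioxin response core GCGTG was present in 28.2% of all promoters and in 16 of the 78, the half-site AGGTCA in 14.0% and in 18, and the TATA box TATAAA in 12.4% and in 24. None of the 4 motifs holds another, although TGAGTCA and AGGTCA end in the same 4 letters, and a match is a description of the letters only.

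Markers of skin appendages were also lower in HFD-IMQ skin. All 7 inner root sheath genes fell, with a list mean of 2.77 to 4.72 in HFD-IMQ skin and 7.73 to 10.73 in HFD-vehicle skin. Of the 8 sebaceous gland genes 5 fell, with a list mean of 5.39 to 6.50 in HFD-IMQ skin and 6.59 to 7.55 in HFD-vehicle skin, and of the 7 hair shaft genes 4 fell. Of 8 adipocyte genes 1 fell, and the list mean spanned 7.11 to 9.17 in HFD-IMQ skin and 7.62 to 8.60 in HFD-vehicle skin. In HFD-IMQ 4, the mouse with the highest Cyp2b23, Cyp2j12 and Cyp2j8 of its group, the sebaceous list mean was also the highest of the group and the inner root sheath mean was 2.77. HFD-IMQ 1 had the highest inner root sheath mean of the group, 4.72, the lowest sebaceous mean, 5.39, and the lowest Cyp2j8, 1.62. In CD-IMQ skin 5 of the 7 inner root sheath genes fell as well, and of the 8 sebaceous gland genes 1 rose and 1 fell. Cyp2b23, Cyp2j12, Cyp2j8, Cyp17a1 and Cyp3a57 did not pass in CD-IMQ skin. The part of these markers in the falls of the same P450 genes in HFD-IMQ skin was not tested.

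**Figure D3:**
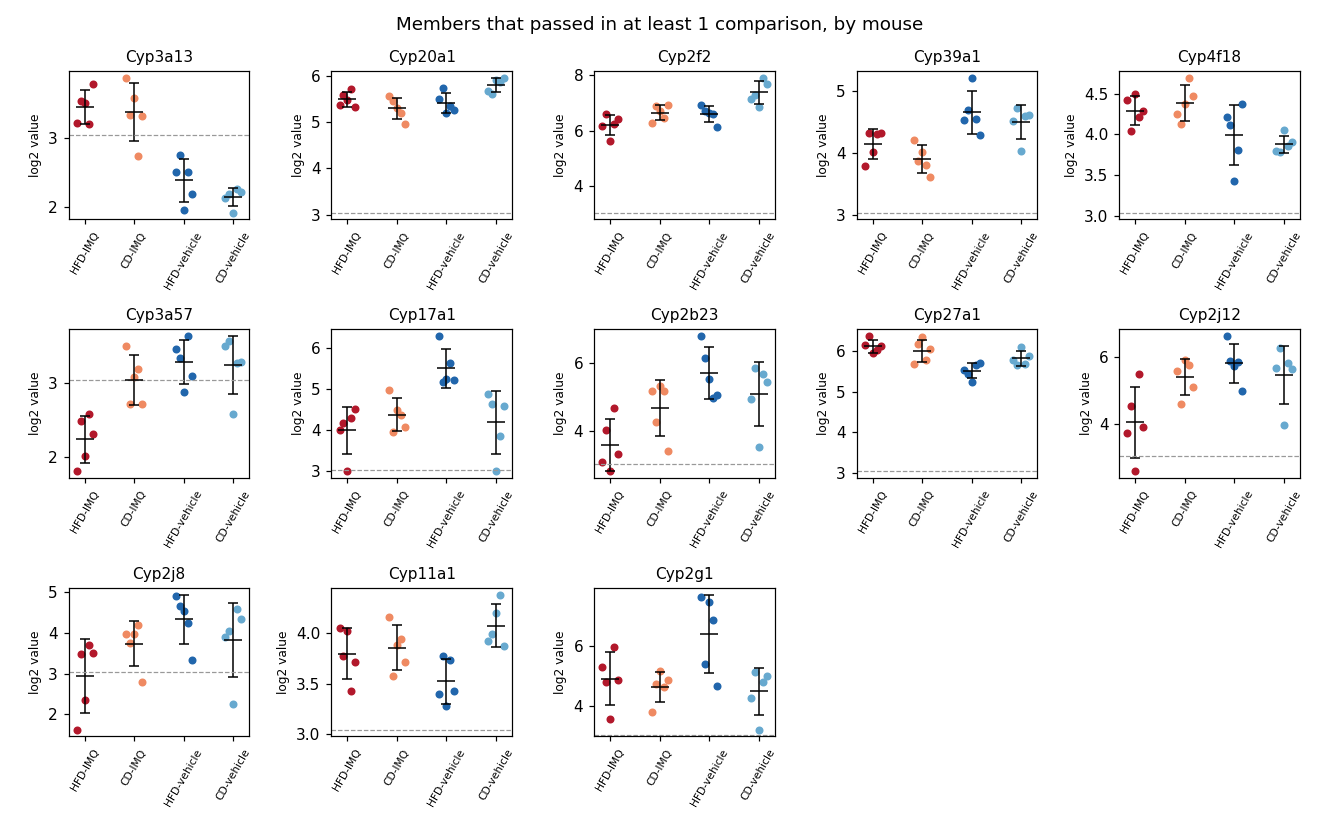
Log2 value of the 13 members that passed in at least 1 comparison, by mouse (points) and group, with the group mean and standard deviation (bars, n = 5) and the highest array median of 3.04 as a dashed line. Cyp3a13 is higher in both IMQ groups, Cyp17a1 is highest in HFD-vehicle mice, and Cyp2b23, Cyp2j12, Cyp2j8 and Cyp3a57 are lowest in HFD-IMQ mice.

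The diet comparison in vehicle skin asked how the high fat diet altered the skin without imiquimod. Cyp17a1 and Cyp2g1 rose in HFD-vehicle skin, by 2.49-fold and 3.76-fold, and Cyp2f2 and Cyp11a1 fell, by 1.72-fold and 1.47-fold. These 4 of 90 members (4.44%) compare with 2.18% of all genes, and all 4 were bright (12.1% of 33, against 3.46% of all genes above the limit). By direction 2 rose and 2 fell, where 1.22% of all genes rose and 0.956% fell, or 1.93% and 1.54% of those above the limit. The groups did not overlap for 5 members, Cyp17a1, Cyp11a1, Cyp2c55, Cyp2j9 and Cyp4b1, and for 3.94% of all genes. None of the 4 calls held under every fit that left out 1 array, and without CD-vehicle 3 the counts were 0 rises and 1 fall (Cyp2f2).

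Cyp17a1 averaged 5.52 ± 0.48 in HFD-vehicle skin and 4.20 ± 0.77 in CD-vehicle skin (SD, n = 5 each), with a change of 1.31 ± 0.32 (standard error, adjusted p = 0.0294). The HFD-vehicle mice are the same as in the IMQ comparison above, so the rise here and the fall there share those 5 arrays. Without CD-vehicle 3, the lowest mouse, the change was 1.01 (adjusted p = 0.0974). Leaving out CD-vehicle 4 also ended the call (adjusted p = 0.0603), as did leaving out HFD-vehicle 1 (0.0946) or HFD-vehicle 4 (0.0533).

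Cyp2g1 measured 7.62, 5.42, 7.47, 6.86 and 4.68 in HFD-vehicle skin, against 4.30, 5.13, 3.23, 4.81 and 5.01 in CD-vehicle skin. HFD-vehicle 1, 3 and 4 were well above all chow-fed mice while HFD-vehicle 5 lay among them, and the change was 1.91 ± 0.49 (adjusted p = 0.0434). In the IMQ groups it measured 5.32, 4.81, 3.59, 5.98 and 4.88 in HFD-IMQ skin, against 3.80, 4.75, 5.16, 4.63 and 4.86 in CD-IMQ skin, which overlapped. Its IMQ change in HFD mice was -1.49 and did not pass (adjusted p = 0.0845). That change passed without HFD-vehicle 5 (-1.92, adjusted p = 0.0121) or HFD-IMQ 4 (-1.76, 0.0389). The call for diet in vehicle skin was lost in 14 of the 20 fits without 1 array, with adjusted p from 0.0504 to 0.143. They left out CD-vehicle 1, 3, 4 or 5, CD-IMQ 2, 3, 4 or 5, HFD-vehicle 1, 3 or 4, or HFD-IMQ 1, 2 or 5. Without CD-vehicle 3 the diet difference in vehicle skin was 1.59 (adjusted p = 0.143).

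Cyp2f2 averaged 6.60 ± 0.30 in HFD-vehicle skin and 7.39 ± 0.42 in CD-vehicle skin, a change of -0.78 ± 0.20 (adjusted p = 0.0398). HFD-vehicle 1 lay above CD-vehicle 3, and the other mice did not overlap. Leaving out CD-vehicle 2, 4 or 5, or HFD-vehicle 2, 3, 4 or 5, ended the call, with adjusted p from 0.0534 to 0.108, while without CD-vehicle 3 the change was -0.91 (adjusted p = 0.0253). The second Cyp2f2 feature was also lower, by -0.39. This fall and that in CD-IMQ skin are taken against the same CD-vehicle arrays.

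Cyp11a1 cleaves the side chain of cholesterol as the first step of steroid hormone synthesis. It measured 3.39, 3.77, 3.28, 3.74 and 3.43 in HFD-vehicle skin, against 3.92, 4.0, 4.20, 4.39 and 3.87 in CD-vehicle skin. These groups lay apart with a change of -0.55 ± 0.14 (adjusted p = 0.0421), but its other feature averaged 3.77 in HFD-vehicle skin and 3.55 in CD-vehicle skin. The mean of both features gave -0.17 (adjusted p = 0.510). Without CD-vehicle 3 the adjusted p was 0.120, and leaving out CD-vehicle 2 or 4, CD-IMQ 3, HFD-vehicle 1, 3 or 5, or HFD-IMQ 2 or 5 also ended the call, with adjusted p from 0.0510 to 0.119. The fall of Cyp11a1 therefore depends on which feature and which mice are used.

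Cyp2c55, which oxidises arachidonic acid, measured 4.98, 5.45, 4.95, 5.54 and 5.03 in HFD-vehicle skin, against 6.06, 5.83, 7.08, 6.59 and 7.02 in CD-vehicle skin. The groups lay apart, yet the change of -1.33 did not pass (95% interval -2.06 to -0.59, adjusted p = 0.0504). It passed without CD-vehicle 2 (adjusted p = 0.0356), CD-IMQ 2 (0.0412), CD-IMQ 3 (0.0489), HFD-IMQ 4 (0.0194) or HFD-IMQ 5 (0.0297), while without CD-vehicle 3 the adjusted p was 0.149. In IMQ skin it measured 4.53, 5.15, 5.37, 6.40 and 3.88 in HFD-IMQ mice, against 6.48, 7.11, 5.45, 5.88 and 6.12 in CD-IMQ mice, an overlapping difference of -1.14 (adjusted p = 0.317). A second Cyp2c55 feature, at a mean of 1.28 well below the limit, did not share the lower values. It differed by 0.14 for diet in vehicle skin.

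Hair markers moved with diet too. All 7 inner root sheath genes and 4 of 7 hair shaft genes rose in HFD-vehicle skin, with an inner root sheath mean of 7.73 to 10.73 in HFD-vehicle skin and 2.94 to 6.39 in CD-vehicle skin. Of 6 suprabasal keratinocyte genes 3 rose, and 0 of 8 sebaceous and 0 of 8 adipocyte genes passed. HFD-vehicle 3 had the highest inner root sheath mean, 10.73, and its Cyp1b1 value of 5.46 was the highest of its group. The part of these markers in the diet calls was not tested.

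**Figure D4:**
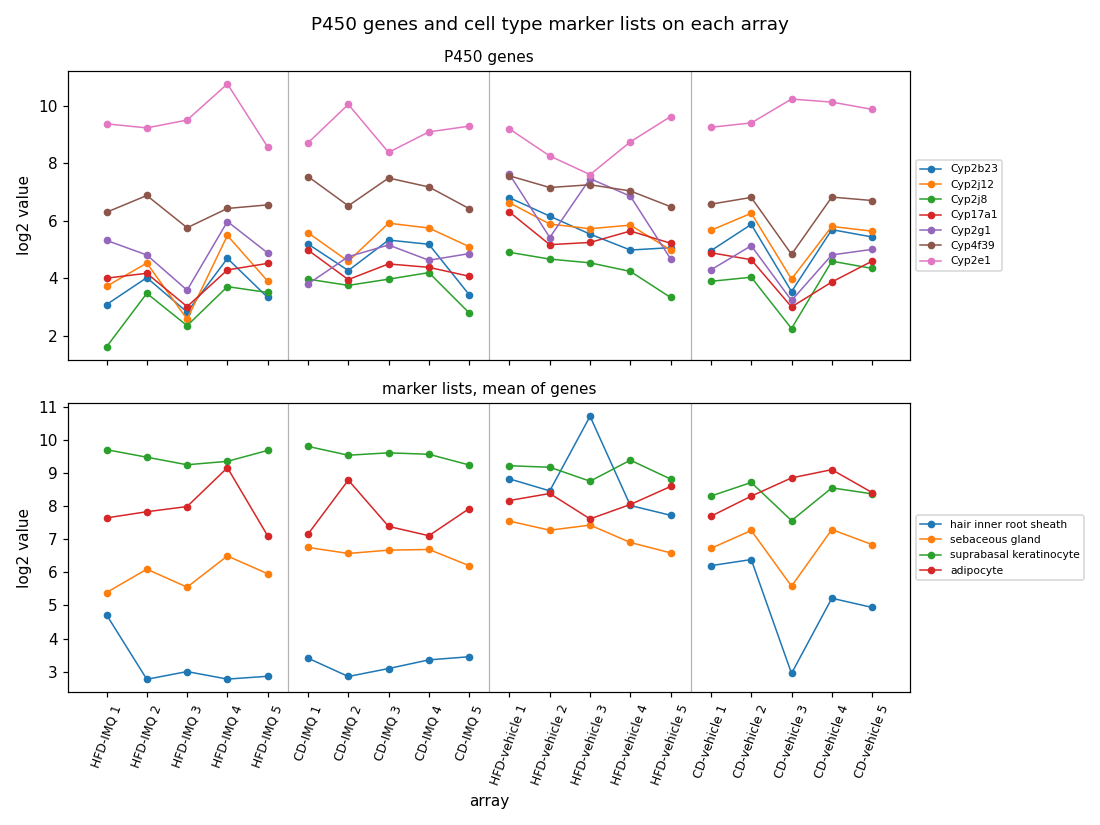
Log2 values of 7 cytochrome P450 genes (top) and the mean log2 value of 4 marker lists (bottom) on each of the 20 arrays, by group; the lines only help to follow a gene across the mice of a group. The inner root sheath mean is at most 4.72 in every IMQ mouse and at least 7.73 in every HFD-vehicle mouse, and CD-vehicle 3 is low for Cyp2b23, Cyp2j12, Cyp2j8, Cyp2g1, Cyp17a1 and Cyp4f39.

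In IMQ skin no gene passed for diet. Of the 90 members 0 passed for HFD-IMQ against CD-IMQ (percent called 0 over all genes), while 9 members (10%) had an unadjusted p below 0.05, against 10.3% of all genes. Cyp3a57 was the single member whose groups did not overlap, against 1.67% of all genes, at 1.81 to 2.58 in HFD-IMQ skin and 2.72 to 3.50 in CD-IMQ skin (change -0.80, 95% interval -1.21 to -0.40, adjusted p = 0.255). Cyp2j12 averaged 4.05 ± 1.07 in HFD-IMQ skin and 5.39 ± 0.54 in CD-IMQ skin (95% interval of the difference -2.24 to -0.45, adjusted p = 0.334). Cyp2b23 averaged 3.59 ± 0.76 in HFD-IMQ skin and 4.68 ± 0.82 in CD-IMQ skin (-2.02 to -0.16, adjusted p = 0.406).

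The interaction asked whether the IMQ change differed between diets. No member passed, against 0.663% of all genes (0.473% higher and 0.189% lower, or 0.779% and 0.283% of those above the limit), so a difference between the diets was not established for any gene called in only 1 of them. An unadjusted p below 0.05 was found for 17 members (18.9%), against 15.9% of all genes, and for 15 of the 33 bright members (45.5%), against 20.9% of all genes above the limit. CD-vehicle 3, the lowest of its group for 16 of the 33, enters every interaction, and these shares are not given without it. Paralogs may also share signal, so the members may not be independent. Cyp17a1 came nearest, with an IMQ change lower by 1.69 ± 0.45 in HFD mice than in CD mice, written as -1.69 (adjusted p = 0.0763). Without CD-vehicle 3 it was -1.39 (adjusted p = 0.124). The corresponding values were -1.70 for Cyp2b23 (95% interval -3.01 to -0.39), -1.69 for Cyp2j12 (-2.96 to -0.42), 1.48 for Cyp2e1 (0.39 to 2.56) and -1.40 for Cyp4f39 (-2.32 to -0.47). Without CD-vehicle 3 they were -1.31 for both Cyp2b23 and Cyp2j12, 1.36 for Cyp2e1 and -1.02 for Cyp4f39. For Cyp3a13, which rose in both diets, the interaction was -0.17 (-0.67 to 0.34).

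**Figure D5:**
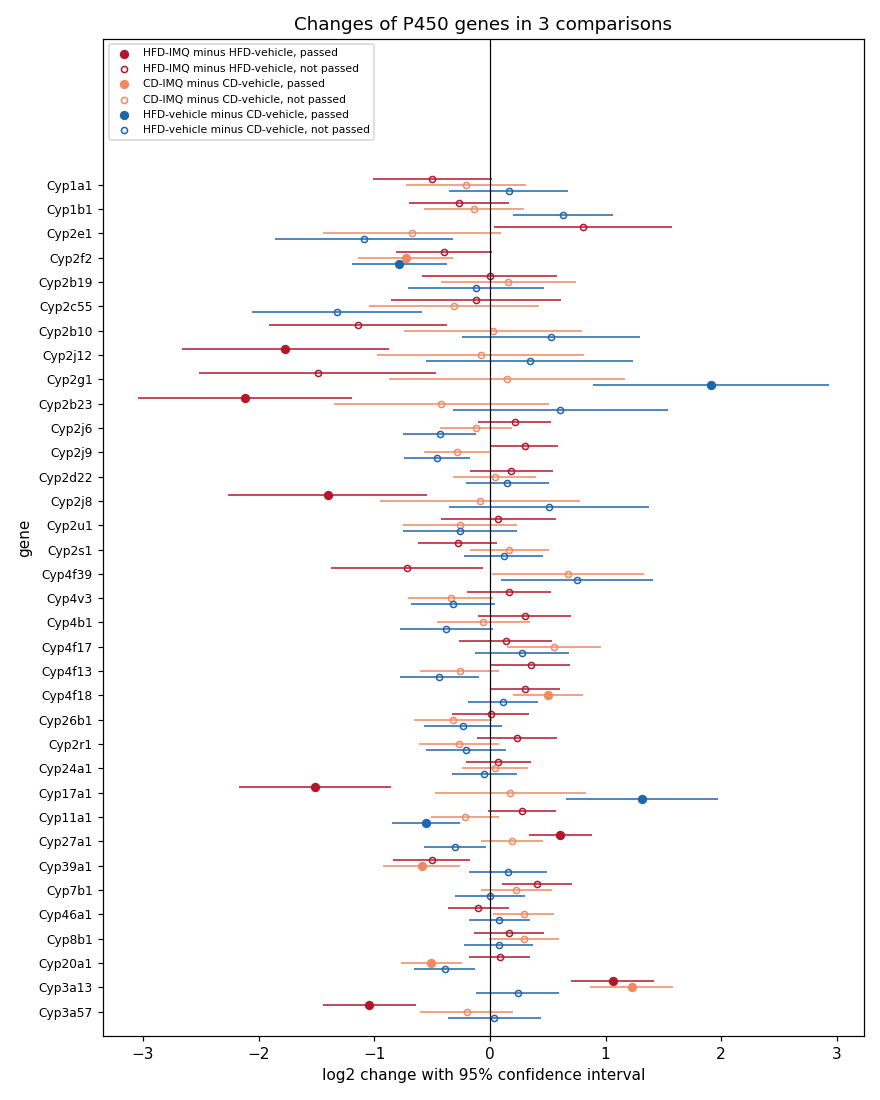
Log2 change with its 95% confidence interval for the 33 bright cytochrome P450 genes and for Cyp3a13 and Cyp3a57, in HFD-IMQ minus HFD-vehicle (red), CD-IMQ minus CD-vehicle (orange) and HFD-vehicle minus CD-vehicle (blue), with filled points for changes at an adjusted p below 0.05. The red and orange points lie together for Cyp3a13, and the filled red points of Cyp2b23, Cyp2j12, Cyp2j8 and Cyp17a1 lie left of the orange ones.

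Members with a known role in skin were followed in every comparison whether or not they changed. Cyp1a1, the main target of the aryl hydrocarbon receptor, averaged 4.27 ± 0.33 in HFD-IMQ skin, 4.40 ± 0.46 in CD-IMQ skin, 4.77 ± 0.35 in HFD-vehicle skin and 4.61 ± 0.59 in CD-vehicle skin. Its largest difference, between HFD-IMQ and HFD-vehicle, was -0.50 and did not pass (95% interval -1.01 to 0.02, adjusted p = 0.324). Without CD-vehicle 3, at 3.58 the lowest of its group, that interval was -0.91 to -0.08 (adjusted p = 0.176). The IMQ change in CD mice was then -0.46 (-0.90 to -0.025, adjusted p = 0.198), against -0.21 with that array. The diet difference in vehicle skin turned from 0.16 to -0.09, and none of these passed. Cyp1b1, which shares that receptor and oxidises estrogens, averaged 4.39 ± 0.40 in HFD-IMQ, 3.88 ± 0.09 in CD-IMQ, 4.65 ± 0.47 in HFD-vehicle and 4.02 ± 0.38 in CD-vehicle skin. Its diet difference was 0.63 in vehicle skin (0.20 to 1.07, adjusted p = 0.121) and 0.51 in IMQ skin (0.08 to 0.94, adjusted p = 0.406). Cyp2s1, an epithelial enzyme induced through the same receptor, stayed near the limit, at group means of 3.04 to 3.37.

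Of the 3 retinoic acid hydroxylases and the 3 members of vitamin D metabolism, none passed. Cyp26b1, which clears retinoic acid, averaged 4.64 ± 0.14 in HFD-IMQ, 4.55 ± 0.36 in CD-IMQ, 4.64 ± 0.19 in HFD-vehicle and 4.87 ± 0.33 in CD-vehicle skin, with a largest change of -0.32 for IMQ in CD mice (95% interval -0.66 to 0.02). Cyp24a1, which inactivates the vitamin D hormone, had group means of 2.99 to 3.09, at the limit itself. Cyp27b1, which makes that hormone, lay below the limit in all 4 groups and changed by -0.32 in CD-IMQ skin (adjusted p = 0.0803), and it passed without CD-vehicle 2 (adjusted p = 0.0464).

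Cyp4f39, the barrier lipid hydroxylase, averaged 6.38 ± 0.41 in HFD-IMQ, 7.03 ± 0.53 in CD-IMQ, 7.10 ± 0.39 in HFD-vehicle and 6.35 ± 0.85 in CD-vehicle skin. Its IMQ change was -0.72 in HFD mice (95% interval -1.37 to -0.06, adjusted p = 0.241) and 0.68 in CD mice (0.02 to 1.34, adjusted p = 0.195), and the interaction had an adjusted p of 0.124. CD-vehicle 3 at 4.83 was far below the other mice of its group, which lay between 6.58 and 6.82. Without it the IMQ change in CD mice was 0.30 (-0.20 to 0.80), the diet difference in vehicle skin was 0.37 (-0.13 to 0.87) in place of 0.75, and the interaction was -1.02 (adjusted p = 0.170). Cyp2b19, the keratinocyte epoxygenase, averaged 6.09 ± 0.25 in HFD-IMQ, 6.37 ± 0.46 in CD-IMQ, 6.09 ± 0.51 in HFD-vehicle and 6.21 ± 0.71 in CD-vehicle skin, with a largest change of -0.28 between the IMQ groups, which did not pass. Without CD-vehicle 3 the diet difference in vehicle skin was -0.43 (95% interval -0.91 to 0.04), against -0.12 with it. Cyp4b1, which oxidises fatty acids, had its largest difference between the vehicle groups, -0.38 (95% interval -0.78 to 0.03).

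Cyp2e1 averaged 9.49 ± 0.80 in HFD-IMQ, 9.10 ± 0.63 in CD-IMQ, 8.68 ± 0.79 in HFD-vehicle and 9.78 ± 0.43 in CD-vehicle skin. The diet difference in vehicle skin of -1.09 did not pass (95% interval -1.86 to -0.32, adjusted p = 0.135), and neither did the IMQ change of 0.80 in HFD mice (0.03 to 1.57, adjusted p = 0.273). In HFD-IMQ 4 Cyp2e1 stood at 10.76 and the adipocyte list mean at 9.17, both the highest of the group, and the part of fat in these values was not tested. Cyp7b1, which hydroxylates oxysterols, averaged 4.42 ± 0.20 in HFD-IMQ, 4.24 ± 0.19 in CD-IMQ, 4.01 ± 0.35 in HFD-vehicle and 4.01 ± 0.17 in CD-vehicle skin. Its largest change was 0.41 for IMQ in HFD mice (0.10 to 0.71, adjusted p = 0.122).

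Genes that work beside the P450 enzymes were followed in lists, whose counts can be read against the shares of all genes called above. The IMQ comparison in CD mice and the diet comparison in vehicle skin share the CD-vehicle arrays. Changes of 1 gene in both are therefore not independent, and values without CD-vehicle 3 are not given for these lists. Of 10 measured genes for electron transfer and heme, Hmox1, which breaks down heme, rose by 1.53 ± 0.17 in HFD-IMQ skin (adjusted p = 2.41e-06) and by 1.42 ± 0.17 in CD-IMQ skin (5.50e-06). Pgrmc1, a heme-binding partner of P450 enzymes, fell by 0.48 in CD-IMQ skin, and no other gene of that list passed. Of 3 P450 enzymes whose symbols do not follow the pattern, Tbxas1, the thromboxane synthase, rose by 0.65 ± 0.15 in HFD-IMQ skin (adjusted p = 0.00698), and Cyp51 and Ptgis did not pass.

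Of 8 genes of the aryl hydrocarbon receptor pathway, 2 rose and 0 fell in HFD-IMQ skin, and 0 rose and 3 fell in CD-IMQ skin. Tiparp, a target and inhibitor of the receptor, had group means of 5.84 in HFD-IMQ, 5.28 in CD-IMQ, 5.32 in HFD-vehicle and 6.16 in CD-vehicle skin. It rose by 0.51 in HFD-IMQ skin (adjusted p = 0.0413), fell by 0.88 in CD-IMQ skin (0.000393) and fell by 0.84 with the diet in vehicle skin (0.00340). Its interaction passed at 1.39 ± 0.21 (adjusted p = 0.00236), and so did that of Arnt, the partner of the receptor, at 0.69 (0.0467). Neither Cyp1a1 nor Cyp1b1 passed in these comparisons.

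Of 12 lipid and xenobiotic nuclear receptors, Ppard rose by 0.49 in HFD-IMQ skin and by 0.55 in CD-IMQ skin, and Nr1h4, which lay below the limit, fell by 0.37 in CD-IMQ skin. Of 17 retinoid handling genes 2 rose and 1 fell in HFD-IMQ skin, and 4 rose and 3 fell in CD-IMQ skin. Among them Fabp5, a carrier of fatty acids and retinoic acid, rose by 0.84 in HFD-IMQ skin and by 1.56 in CD-IMQ skin, and Dhrs9, a retinol dehydrogenase, rose by 0.81 in HFD-IMQ skin and by 1.49 in CD-IMQ skin. Aldh1a3, which makes retinoic acid, fell by 0.77 in HFD-IMQ skin, and Aldh1a1 fell by 0.89 and the retinol carrier Rbp4 by 1.01 in CD-IMQ skin. Fabp5 (0.70) and Dhrs9 (1.06) also rose with the diet in vehicle skin. Of 4 vitamin D partners Vdr, the receptor, fell by 1.34 in HFD-IMQ skin (adjusted p = 0.000941) and rose by 1.30 with the diet in vehicle skin (0.00477), and its values come from the same 5 HFD-vehicle arrays.

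Of 11 measured genes for the epidermal acylceramides that the Cyp4f39 pathway feeds, 5 rose and 1 fell in HFD-IMQ skin, and 6 rose and 0 fell in CD-IMQ skin. Sdr9c7 rose by 1.22 in HFD-IMQ skin and by 1.72 in CD-IMQ skin, Abca12, the lipid transporter of the barrier, rose by 0.92 in HFD-IMQ skin and by 1.59 in CD-IMQ skin, and the ceramide synthase Cers3 rose by 0.90 in HFD-IMQ skin and by 1.50 in CD-IMQ skin. Elovl4, which lengthens fatty acids, fell by 0.80 in HFD-IMQ skin, and Cers3 and Abca12 rose by 0.87 and 0.80 with the diet in vehicle skin. Of 17 eicosanoid enzymes 3 rose and 2 fell in HFD-IMQ skin, and 4 rose and 3 fell in CD-IMQ skin, with the lipoxygenase Alox12b at 0.97 in HFD mice and 1.43 in CD mice and Alox12e at -1.05 in HFD mice and -1.10 in CD mice. Ptgs2, the inducible cyclooxygenase, fell by 1.38 in CD-IMQ skin and by 1.38 with the diet in vehicle skin, both against the same CD-vehicle arrays. Of 11 steroid conversion genes Sult2b1, which sulfates cholesterol, rose by 0.96 and the glucocorticoid receptor gene Nr3c1 fell by 0.50 in CD-IMQ skin, and 0 passed in HFD-IMQ skin.

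Of the 57 dimmer members 2 passed for IMQ in HFD mice (Cyp3a13 and Cyp3a57), which is 3.51%, against 1.34% of all genes at or below the limit. In CD mice 1 passed (Cyp3a13, 1.75%), against 2.24%. For diet 0 passed in vehicle skin, against 0.33%, and 0 in IMQ skin, against 0, and the interaction gave 0, against 0.088%. Cyp3a13, Cyp3a57 and Cyp2a22 were the dimmer members with at least 1 group mean above the limit. The 7 hepatocyte markers, a check for liver-type expression of P450 genes, had array means of 2.43 to 3.08, with 3 of the 7 genes above the limit, and 0 passed in any comparison. Alb, the serum albumin gene, had group means of 3.52 in HFD-IMQ, 3.73 in CD-IMQ, 3.76 in HFD-vehicle and 4.85 in CD-vehicle skin.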

How the data were processed

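RNA of 20 skin samples was measured on 1-colour Affymetrix arrays from 300 ng of RNA, per the labels' protocols. The deposited log2 values come from RMA with the affy package, per the submitters' processing notes; tool versions, any scan batches and the set of arrays that RMA ran over are not stated there or in the labels. Of 41345 features 23521 carried 1 gene symbol, 1814 several and 16010 none; 23328 of the first kind matched RefSeq (GRCm38.p6), which changed 0 symbols. The pattern matches 93 protein-coding RefSeq genes, and Cyp2c67, Cyp4a10 and Cyp4a32 had only features with several symbols. For Cyp11a1, Cyp2c29, Cyp2c55 and Cyp2f2 more than 1 feature existed.

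Group means were fitted with limma 3.58.1 (R 4.3.3) over all 20 arrays and 22180 genes, with eBayes, 5 contrasts and Benjamini-Hochberg adjustment, and a gene was called at an adjusted p below 0.05. "Rose" and "fell" are used of called genes. A ± after a change is its standard error and after a mean its SD. The median standard error of a change in the IMQ comparison of CD mice was 0.136 over all genes and ran from 0.0884 to 0.493 over members; the number of arrays and the spread between mice both limit the precision. P-values measure the spread between mice; the labels number the mice as biological replicates. The script was tested on simulated data.

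Replicate numbers were not treated as pairs, since they name separate mice. Of 30 same-number pairs of arrays 4 had a correlation of residuals over 0.1 (range -0.217 to 0.320). Pairs of different numbers were not examined, so these correlations cannot decide whether the numbers mark a block. Members, roles and lists were chosen with earlier results of these data known. Named were the called members, the 8 brightest, the 3 on each side of the limit, and 11 followed genes; partner lists name at most 4 called genes each. Others (Cyp2j6, Cyp2j9, Cyp46a1, Cyp2a22) were chosen after their values were seen. Alternatives were another normalization, centring, the mean of features, filters on dim genes, array weights, a trended robust prior, the compared groups alone, a replicate block and leaving out each array. Tables were joined in Python 3.11.15 (pandas 2.3.3, numpy 2.4.6) and plots drawn in matplotlib 3.10.9.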

Additional observations from a re-analysis of the deposited data

Results flagged for a closer look

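In groups of 5 mice, the gap between an extreme mouse and the nearest other one was compared with the group's range by Dixon's test at the 95% level. Over 29 named members this examined 116 groups and marked 7, where chance marks about 1 in 20. CD-vehicle 3 gave 4 of the 7. In that mouse Cyp2j12 was 3.98 (others 5.64 to 6.26), Cyp4f39 was 4.83 (6.58 to 6.82), Cyp2b19 was 4.95 (6.40 to 6.68) and Cyp1a1 was 3.58 (4.65 to 5.06), each the lowest of CD-vehicle. Cyp2b19 was 5.21 in HFD-vehicle 5, against 6.18 to 6.51 in the other mice of that group. Cyp8b1, which hydroxylates bile acid precursors, was 3.50 in CD-IMQ 4, against 3.12 to 3.22. Cyp1b1 was 5.46 in HFD-vehicle 3, against 4.23 to 4.57.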

How the results depend on the processing

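None of the 16 called changes of members turned its direction in any alternative that was run. Of 129 changes of named members that did not pass, 35 turned in at least 1 alternative, 8 of them without CD-vehicle 3, such as Cyp17a1 (-0.12, against 0.18) and Cyp2g1 (-0.17, against 0.14) for IMQ in CD mice. The calls of Cyp3a13 (both diets), Cyp20a1, Cyp3a57, Cyp17a1 in HFD mice, Cyp2b23, Cyp27a1 and Cyp2j12 held under all alternatives in which the gene was tested. Cyp3a13 and Cyp3a57 were removed by the filter on the mean of 20 arrays, which left 1 rise in CD mice and 1 in HFD mice, against 2 each. Without 1 array, the IMQ rises in CD mice numbered 1 to 3 and the falls 1 to 4, and the falls in HFD mice 4 to 8; 8 came without HFD-vehicle 5, which added Cyp2b10, Cyp2g1 (-1.92, adjusted p = 0.0121) and Cyp39a1 (-0.60, 0.0347). The diet calls in vehicle skin were the least stable. The 2 rises became 1 with centring, array weights or the replicate block, and 0 with the trended robust prior or the compared groups alone, and 0 to 2 without 1 array. The 2 falls became 0 with centring or the replicate block, 1 with the mean of features (Cyp2f2) or the compared groups alone (Cyp2c55, with both earlier falls lost), and 0 to 3 without 1 array. With array weights the count stayed 2, with Cyp11a1 lost and Cyp2c55 gained. The interaction gave 1 fall with the replicate block (Cyp17a1, -1.69, adjusted p = 0.0434). Cyp2j8 lost its call with quantile normalization, centring, the trended prior and the compared groups alone. Cyp2c55 gained one for diet in vehicle skin with quantile normalization, both filters, array weights and the compared groups alone. The cause of these shifts was not tested, except that fewer genes or arrays enter some fits. The compared groups alone were not run for the interaction. Values near the array medians limit what can be said of dim members.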
